A study of Arabidopsis thaliana with 16 samples.

Results

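Transcripts of 6 nuclear genes that serve the chloroplast NADH dehydrogenase-like (NDH) complex were followed in gun1 and wild type (WT) Arabidopsis thaliana: NdhS, NdhN, PIFI, CRR41, CRR21 and OTP85. A gene was included when the platform's gene table named it alone on a probe, which held for 1 probe each, or 6 of the 692 probes naming 1 gene on an array of 3439. The 6 were picked by name with their difference between gun1 and WT already known from these samples, so that difference is described below and is not evidence for a choice of genes. The gun1 samples carry the gun1-1 allele, defective in plastid signaling, in the ecotype Columbia 0, and the WT samples are of the same ecotype. There were 8 samples of total RNA per genotype, each numbered 1 to 8. The labels give no tissue, age, light or growth condition, and do not say whether the numbers stand for separate plants, so the spread between samples may be technical. Because gun1-1 is 1 allele and all gun1 samples share it, a change of the allele and any other difference of that line cannot be told apart.

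The NDH complex sits in the thylakoid membrane and resembles complex I of respiration. It takes electrons from ferredoxin and returns them to plastoquinone, which drives cyclic electron flow around photosystem I and electron entry into plastoquinone in the dark. Some of its subunits are encoded in the plastid and others in the nucleus, and the plastid transcripts need nuclear RNA-binding proteins for C-to-U editing, so the complex depends on the supply of parts from both genomes. GUN1, a pentatricopeptide repeat protein of the plastid, acts in retrograde signaling, in which the state of the plastid alters the expression of nuclear genes.

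Among these genes, NdhS, NdhN, PIFI and CRR41, which supply structure, function or assembly, were lower in gun1 after quantile normalization, by 1.41-fold to 1.85-fold. The editing factors CRR21 and OTP85 did not pass the threshold. Calls with the lower level in gun1 were 4 of the 6, and those with the higher level 0 (limma, adjusted p under 0.05 over 3419 probes). Over all probes tested, 15.2% were called lower, 16.6% higher and 31.8% in either direction, and since the genes were chosen on this comparison nothing is read from the count. The median log2 difference, gun1 minus WT, was -0.79 over the 4 genes, -0.16 over the 2 editing factors and -0.05 over all probes. Fewer cells of a type and less RNA per cell cannot be told apart in such bulk RNA.

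**Figure D1:**
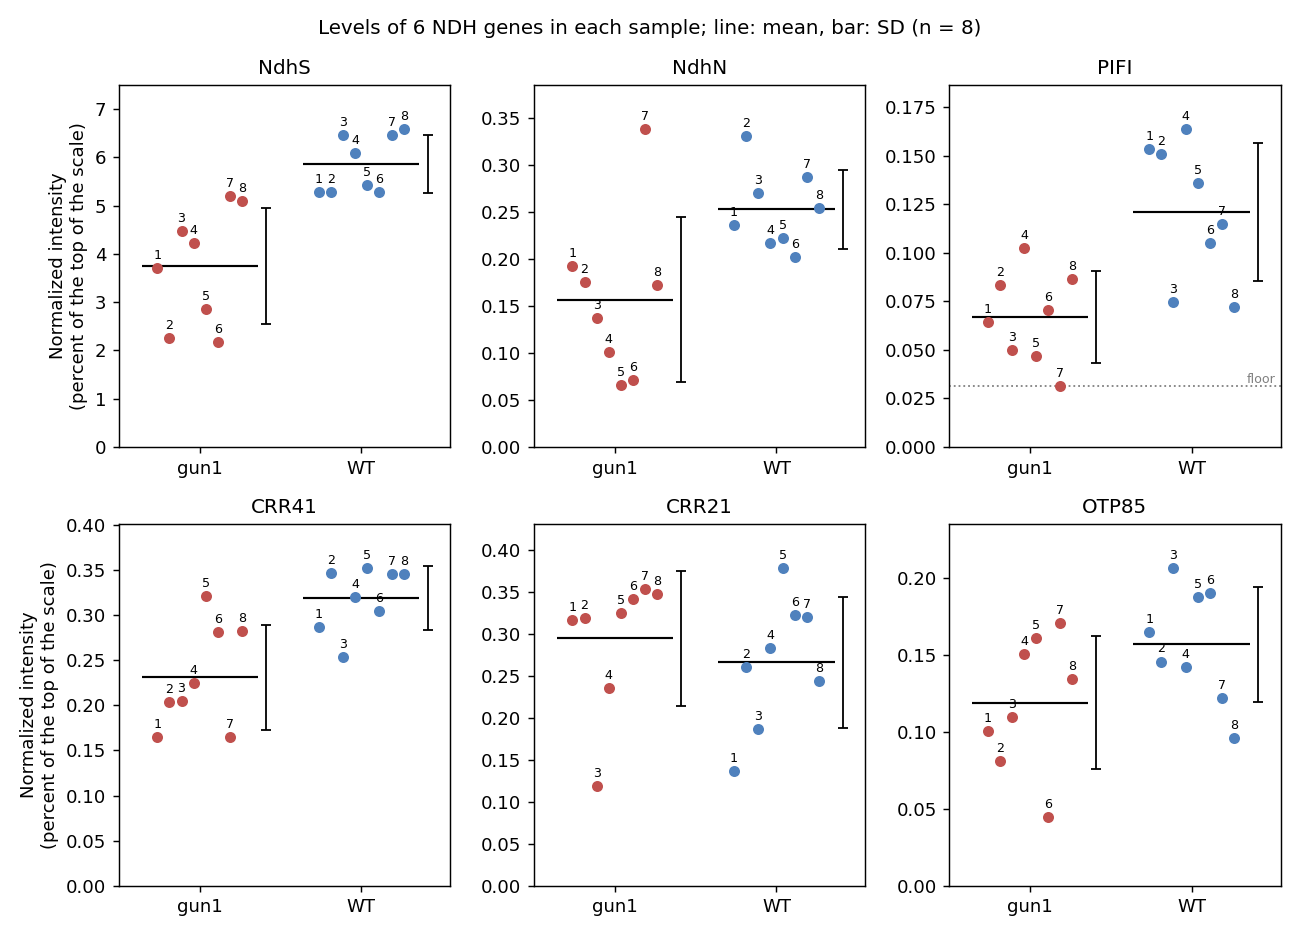
Normalized intensity (vertical axis of each panel, linear, starting at 0) of the 6 genes in 8 gun1 and 8 WT samples, each point marked with its sample number; lines are means and bars SD. All gun1 points of NdhS lie below all WT points, while the groups overlap for the other 5 genes, and the dotted line in the PIFI panel is the floor of 0.0313.

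NdhS (AT4G23890), also named CRR31, is a subunit at the site where ferredoxin docks. Its normalized intensity, in percent of the top of the deposited scale, was lowest at 2.18, had a median of 3.96 and was highest at 5.20 in gun1, against 5.28, 5.75 and 6.58 in WT. The groups did not overlap, which was the case for 1 of the 6 genes, whereas 3.33% of all probes were lower in gun1 without overlap and 8.13% differed in either direction without it. Means were 3.75 ± 1.21 in gun1 and 5.86 ± 0.597 in WT (SD, n = 8 each), a log2 difference of -0.71 (SE 0.19), or a level 1.64-fold higher in WT. In gun1 the numbers 2, 6 and 5 were lowest, at 2.26, 2.18 and 2.85, and 7 and 8 highest, at 5.20 and 5.09. WT had its lower values in the numbers 1, 2, 5 and 6 and its higher ones in 3, 4, 7 and 8, so the numbers 2, 5 and 6 were low and 7 and 8 high in both genotypes. The difference was below 0 in 8 of 8 numbers, from -1.28 in number 6 to -0.31 in number 7. In the values as deposited the groups did overlap, with 2.05 to 5.24 in gun1 and 4.90 to 6.94 in WT, but gun1 was again lower in 8 of 8 numbers. The probe was among the brightest on the array, above 97.6% of probes, which describes the spot and not the abundance of the transcript relative to other genes.

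NdhN (AT5G58260) is a nuclear-encoded subunit of the stromal part of the complex, known as subcomplex A. In gun1 it had a lowest normalized intensity of 0.0662, a median of 0.154 and a highest of 0.337, against 0.202, 0.245 and 0.330 in WT. Of the gun1 samples, 7 lay below every WT sample, and number 7 lay above every WT sample. The means were 0.156 ± 0.0874 in gun1 and 0.252 ± 0.0422 in WT (SD, n = 8 each), a log2 difference of -0.86 (SE 0.28). The numbers 5 and 6 were lowest in gun1, and the difference ranged from -1.75 in number 5 to 0.23 in number 7. Normalized values were lower in gun1 in 7 of 8 numbers, and values as deposited in 5. The call of NdhN was narrowly lost without gun1 replicate 6, where the log2 difference was -0.73 (limma adjusted p = 0.0502). Without WT replicate 2, gun1 replicate 4 or gun1 replicate 5, the call was narrowly kept (limma adjusted p = 0.0495, 0.0480 and 0.0477). It was kept without gun1 replicate 7, where the difference was -1.06.

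PIFI (AT3G15840), named for the post-illumination rise in chlorophyll fluorescence, is a stromal protein required for reduction of plastoquinone through NDH. It is not counted as a subunit. Its normalized intensity in gun1 was lowest at 0.0313, which is the floor, with a median of 0.0676 and a highest value of 0.103, against 0.0720, 0.125 and 0.164 in WT. The sample at the floor was gun1 number 7, deposited as 0, and in WT the numbers 3 and 8 lay within the range of gun1. The means were 0.0670 ± 0.0237 in gun1 and 0.121 ± 0.0355 in WT (SD, n = 8 each), a log2 difference of -0.88 (SE 0.25) with 7 of 8 numbers lower. Number 8 went the other way, at 0.26. In the values as deposited, gun1 was lower in 3 of 8 numbers. The probe was dim, above 24.7% of probes, and with the floor at the 1st percentile, where the difference was -1.12, the call was lost.

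CRR41 (AT1G51100) is a stromal factor needed to assemble subcomplex A, the part that holds NdhN. In gun1 its normalized intensity was lowest at 0.165, had a median of 0.215 and was highest at 0.321, against 0.253, 0.333 and 0.352 in WT. In gun1, 5 samples lay below every WT sample, and the numbers 5, 6 and 8 lay within the WT range. The means were 0.231 ± 0.0578 in gun1 and 0.319 ± 0.0355 in WT (SD, n = 8 each), a log2 difference of -0.50 (SE 0.16). After quantile normalization every number was lower in gun1, from -1.07 in number 7 to -0.12 in number 6. In the values as deposited, gun1 was lower in 4 of 8 numbers. Normalized values were lower in all 8 numbers for 2 of the 6 genes, NdhS and CRR41, and for 12.3% of all probes. CRR41 lost its call without the numbers 7 and 8, at -0.44.

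CRR21 (AT5G55740) is a pentatricopeptide repeat protein required for editing of the plastid ndhD transcript. Its normalized intensity in gun1 was lowest at 0.118, had a median of 0.322 and was highest at 0.353, against 0.137, 0.272 and 0.378 in WT. The groups overlapped over nearly their whole range, and number 3 was low in both genotypes, at 0.118 in gun1 and 0.186 in WT. The means were 0.295 ± 0.0802 in gun1 and 0.266 ± 0.0780 in WT (SD, n = 8 each). The log2 difference was 0.14 (SE 0.25) and was above 0 in 5 of 8 numbers, the largest being 1.21 in number 1, where WT had its lowest value, 0.137.

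OTP85 (AT2G02980), another pentatricopeptide repeat protein, is also required for editing of ndhD. Its normalized intensity in gun1 was lowest at 0.0444, had a median of 0.122 and was highest at 0.171, against 0.0961, 0.155 and 0.206 in WT. The groups overlapped, with 2 gun1 samples, the numbers 2 and 6, below every WT sample. The means were 0.119 ± 0.0432 in gun1 and 0.157 ± 0.0374 in WT (SD, n = 8 each), a log2 difference of -0.47 (SE 0.26) that was not called. It ranged from -2.10 in number 6 to 0.49 in number 7, and was below 0 in 5 of 8 numbers.

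**Figure D2:**
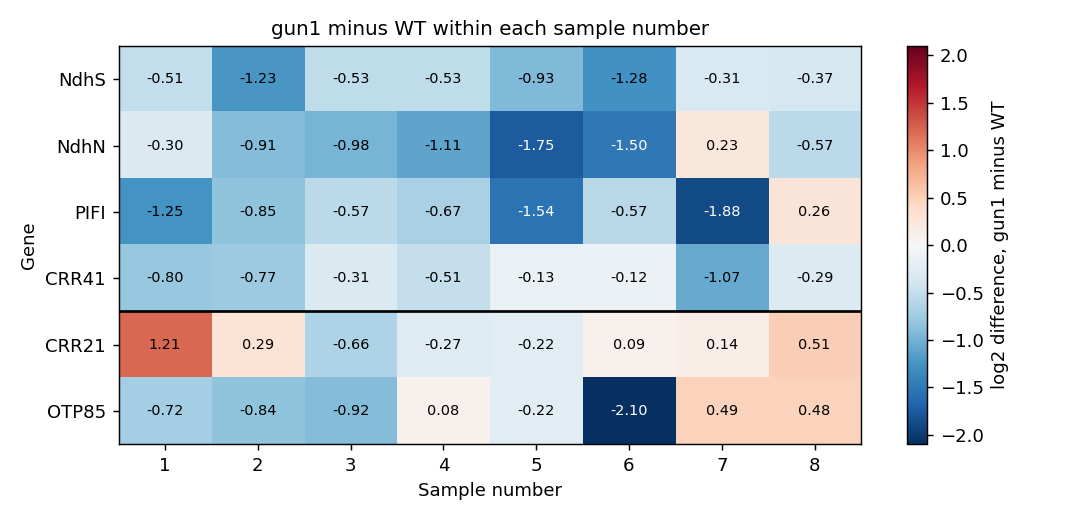
Log2 difference, gun1 minus WT, of normalized intensity within each sample number (columns) for the 6 genes (rows; editing factors under the black line), with blue for lower in gun1 and red for higher. NdhS and CRR41 are below 0 in all 8 numbers, NdhN and PIFI in 7, OTP85 in 5 and CRR21 in 3.

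The difference between the 4 subunit, function or assembly genes and the 2 editing factors was taken within each number. A single scale factor of a sample cancels there, apart from values at the floor. Quantile normalization is not such a factor and does not cancel. From unscaled to quantile-normalized values, the difference of PIFI moved from 0.00 to -0.88 and that of NdhS from -0.84 to -0.71. The mean log2 difference, gun1 minus WT, was -0.74 ± 0.25 over the 4 genes and -0.16 ± 0.53 over the editing factors (SD over 8 numbers). The 4 genes minus the editing factors came to -0.57 ± 0.48 (SD over 8 numbers) and was below 0 in 6 of 8 numbers. The exceptions were number 3, at 0.19, and number 6, at 0.14. Those were the numbers in which OTP85 was lowest relative to WT. No test was made, because the genes had been chosen on these values.

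Most of that gap lay between the 4 genes and CRR21. Relative to CRR21, the difference of PIFI was -1.02 ± 0.89, of NdhN -0.998 ± 0.61, of NdhS -0.85 ± 0.65 and of CRR41 -0.64 ± 0.78 (SD over 8 numbers). Each was below 0 in 7 of 8 numbers, except that of CRR41, which was so in 6. Relative to OTP85, the values ran from -0.42 ± 1.15 for PIFI to -0.03 ± 1.05 for CRR41, all smaller than their SD. With CRR21 left out the gap was -0.27, and with OTP85 left out it was -0.88. Leaving out any of the other 4 genes kept it between -0.65 and -0.53. OTP85 and CRR41, an editing factor and an assembly factor, thus had nearly the same difference, -0.47 and -0.50, of which CRR41 alone was called, having the smaller SE.

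The directions of single genes depended on how the samples were brought to a common scale. The deposited medians over all probes ran from 0.216 to 0.259 in gun1 and from 0.130 to 0.157 in WT, and without scaling the median log2 difference of all probes was 0.41. NdhS was lower in gun1 and called under all 4 scalings, at -0.71 with quantile normalization, -0.84 unscaled, -1.57 with a common median and -0.73 with cyclic loess. For NdhN, PIFI and CRR41 the unscaled difference was -0.17, 0.00 and 0.06, none called, so their deposited intensities were about level between the genotypes. The deposited means were 0.1997 ± 0.113 in gun1 and 0.201 ± 0.0498 in WT for NdhN, and 0.0855 ± 0.0447 in gun1 and 0.0851 ± 0.0318 in WT for PIFI (SD, n = 8 each). For CRR41 they were 0.278 ± 0.0526 in gun1 and 0.266 ± 0.0434 in WT (SD, n = 8 each). As deposited, the editing factors were lower in gun1 in 0 of 8 numbers for CRR21 and in 2 for OTP85.

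With the median log2 difference of all probes subtracted, unscaled values were -1.25 for NdhS, -0.58 for NdhN, -0.41 for PIFI and -0.36 for CRR41. The SE of these unscaled differences was 0.21, 0.30, 0.34 and 0.15 in that order, so the offset of PIFI was little larger than its SE. With a common median the offset of PIFI was -0.48, with an SE of 0.30. NdhS, NdhN, PIFI and CRR41 lay below the median of all probes under each of the 4 scalings. OTP85 did too, though only by 0.04 unscaled, where its difference was 0.37. CRR21 lay above it under each of the 4, by 0.19 with quantile normalization, 0.29 unscaled, 0.15 with a common median and 0.20 with cyclic loess. The SE of the CRR21 difference was 0.25, 0.26, 0.25 and 0.26 in that order, about as large as these offsets. The difference of CRR21 itself was 0.70 and called higher in gun1 unscaled, but -0.03 with a common median. PIFI was not called with a common median, at -0.66, and OTP85 was called with cyclic loess, at -0.68. The gap between the 4 genes and the editing factors was -0.78 ± 0.52 unscaled, -0.76 ± 0.50 with a common median and -0.50 ± 0.48 with cyclic loess (SD over 8 numbers).

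**Figure D3:**
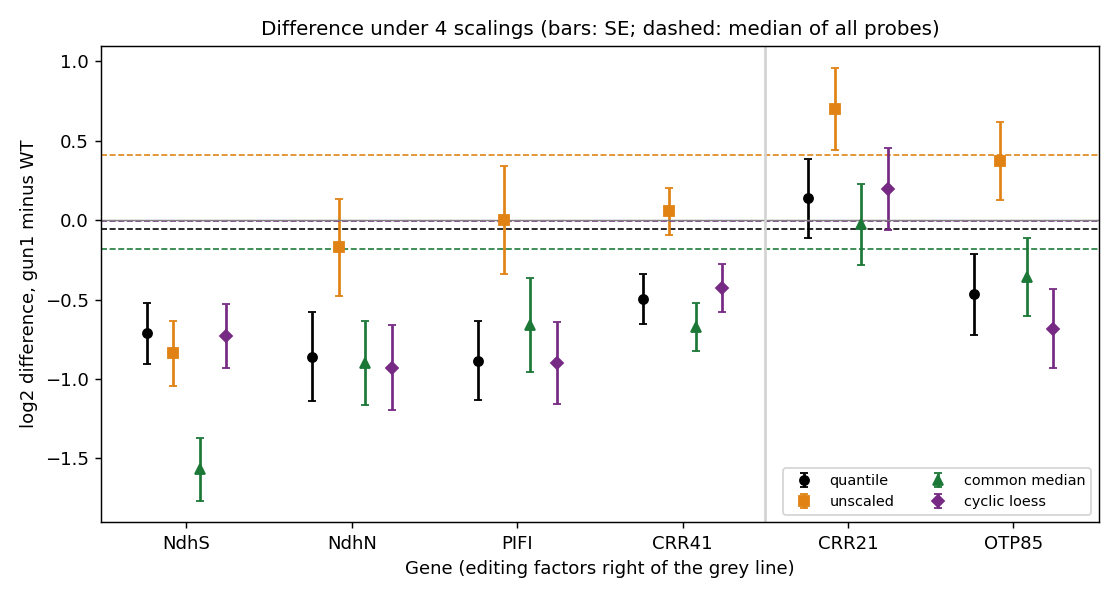
Log2 difference, gun1 minus WT (vertical axis), of the 6 genes under 4 scalings; bars are SE from limma and dashed lines the median of all probes under the scaling of the same colour. NdhS is below 0 under all 4 scalings, NdhN, PIFI and CRR41 lie near 0 unscaled, where the median of all probes is 0.41, and CRR21 lies above its dashed line each time.

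Over all probes, deviations from the group mean correlated between the consecutive numbers 1 and 2, 3 and 4, 5 and 6, and 7 and 8 of a genotype with r from -0.00925 to 0.356. Among the 6 genes, such pairs were close in some cases, as in the numbers 7 and 8 of NdhS in gun1 (5.20 and 5.09), and apart in others, as in the numbers 7 and 8 of NdhN (0.337 and 0.172) and 5 and 6 of OTP85 (0.161 and 0.0444) in gun1. With consecutive numbers averaged into 4 samples per genotype, 1 of the 6 genes, PIFI, was called, and with them as a random block 1, NdhS. In the numbers 1 to 4 alone and in the numbers 5 to 8 alone, 0 were called by limma. The log2 differences were -0.74 in 1 to 4 and -0.71 in 5 to 8 for NdhS, -0.83 and -0.88 for NdhN, and -0.85 and -0.91 for PIFI. They were -0.60 and -0.41 for CRR41, 0.15 and 0.13 for CRR21, and -0.60 and -0.33 for OTP85. The genes were chosen on the difference over all the numbers. Both sets thus entered the choice, and their likeness is not a replication.

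Within a genotype, the 6 genes had a larger SD in gun1 than in WT on the log2 scale. The SD of log2 normalized intensity was 0.50 in gun1 and 0.15 in WT for NdhS, 0.79 in gun1 and 0.23 in WT for NdhN, and 0.36 in gun1 and 0.17 in WT for CRR41. For NdhS in WT, quantile normalization made ties, at 5.28 in the numbers 1, 2 and 6 and at 6.47 in 3 and 7. The deposited values of 1, 2 and 6 were 5.87, 6.05 and 4.90. These ties enter the SD and the WT correlations of NdhS. As deposited, its linear SD was 1.25 in gun1 and 0.772 in WT. It was 0.65 in gun1 and 0.37 in WT for OTP85, 0.56 in gun1 and 0.46 in WT for PIFI, and 0.54 in gun1 and 0.48 in WT for CRR21. A larger SD in gun1 was thus found for 6 of 6 genes, beside 54.9% of all tested probes and 63.6% of the 2015 probes never at the floor. For PIFI and CRR21 the gap was small, and a single gun1 sample lay far below its group mean. This was number 7 of PIFI, at the floor, with a log2 deviation of -1.01, and number 3 of CRR21, with -1.25. For OTP85 too, a single gun1 sample, number 6, lay far below its group mean, with -1.31 against -0.44 for the next lowest. How much of the larger SD in gun1 came from such single samples was not tested. On the linear scale PIFI alone had the smaller SD in gun1, 0.0237 against 0.0355 in WT. The difference in spread was not tested.

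**Figure D4:**
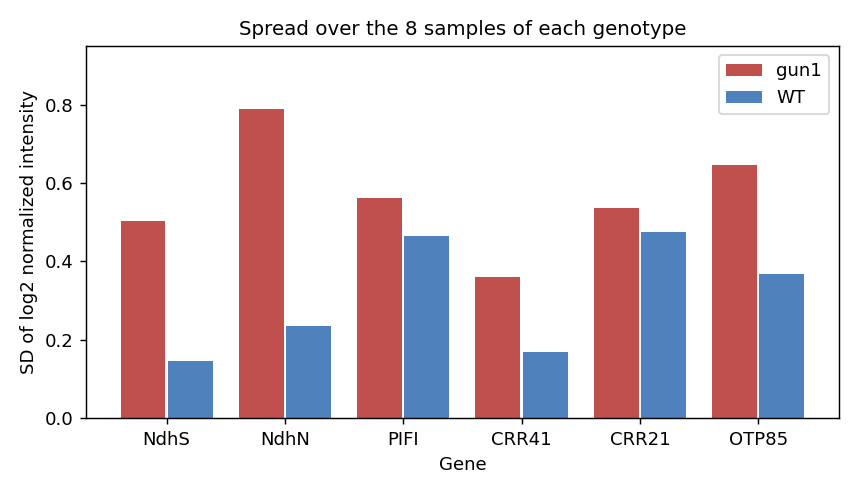
SD of log2 normalized intensity (vertical axis, from 0) over the 8 samples of gun1 and of WT for each of the 6 genes. The bar for gun1 is the taller for every gene, with the widest gaps for NdhN (0.79 in gun1, 0.23 in WT) and NdhS (0.50 in gun1, 0.15 in WT).

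From sample to sample the genes were related with either sign. Deviations of each gene from its genotype mean gave Pearson correlations from -0.67 to 0.54 over the 15 pairs and 16 samples, which share the scaling and, in equal or consecutive numbers, may not be independent, so they are descriptions without a p. The highest was between the subunits NdhS and NdhN, with r = 0.54 (Spearman's rho 0.36), 0.57 in gun1 and 0.23 in WT. It was 0.64 without the 2 samples farthest from the median of NdhS, but 0.26 without the numbers 7 and 8. NdhS and OTP85 followed, with r = 0.53 (rho 0.32), but 0.72 in gun1 and -0.50 in WT, and r was 0.04 without the 2 samples farthest from the median of NdhS. The lowest was between NdhN and CRR41, with r = -0.67 (rho -0.48), -0.80 in gun1 and 0.16 in WT, -0.38 without the 2 samples farthest for NdhN and -0.26 unscaled. The editing factors CRR21 and OTP85 had r = -0.07.

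For each of the 6, the genes with the most similar deviations over the 16 samples were looked up among 683 other probes naming 1 gene. A high r is partly built in by taking the highest of 683 correlations over 16 samples, and none was tested. AT2G46300 was closest to NdhS, with r = 0.85 (rho 0.93), 0.88 in gun1, 0.91 in WT and 0.87 without the 2 samples farthest for NdhS. AT5G40140 came next to NdhS with r = 0.82, though 0.91 in gun1 and -0.31 in WT. Closest to NdhN were AT4G18180 (r = 0.80, but 0.45 in WT alone and 0.58 without the 2 samples farthest for NdhN) and AT3G47650 (r = 0.75). Closest to PIFI were AT1G75260, with r = 0.69 but 0.29 with the floor at the 1st percentile and 0.39 at the 20th, and AT5G44000. The latter had r = 0.64, but 0.48 without the 2 samples farthest for PIFI. Closest to CRR41 were AT5G03900, with r = 0.80 but 0.25 in WT alone, and AT2G28540 (r = 0.62). For CRR21 they were AT3G17550 (r = 0.78) and AT2G22890, with r = 0.74 but 0.45 without the 2 samples farthest for CRR21. For OTP85 they were AT5G47890 and AT5G63290 (r = 0.78 each), the second with 0.52 without the 2 samples farthest for OTP85. None of the 6 genes had another of them as close as these. The reference tables name all of these neighbours by locus only.

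Of 56 genes listed for NDH subunits, NDH assembly or function, plastid RNA editing or processing and other cyclic electron flow, 9 had a probe of their own, the 6 genes above among them. The list of subunits had 2 measured of 20, assembly or function 3 of 10, editing or processing 3 of 19 and other cyclic flow 1 of 7. Another 3, all of the editing list, occur only on probes naming several genes and were not used. Of the 3 remaining genes, limma called 0, and 0 had an unadjusted p under 0.05, beside 31.8% and 42.6% of all probes. Cpn60beta4, a chaperonin subunit needed to fold NdhH for the complex, averaged 0.0931 ± 0.0339 in gun1 and 0.136 ± 0.0501 in WT (SD, n = 8 each; limma log2 difference -0.53, SE 0.30, adjusted p = 0.197). It was lower in gun1 in 7 of 8 numbers, but 0.38 higher on the log2 scale unscaled. AT3G22690, from the editing list, had a log2 difference of -0.34 (SE 0.37) and AT5G59400, from the list of other cyclic flow, of -0.51 (SE 0.36), with 0.40 and 0.55 unscaled. Of 5 marker genes of root, seed and senescent leaf, 0 had a probe of their own, so the tissue could not be checked.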

How the data were processed

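The authors deposited 1 intensity per probe and sample on a linear scale from 0 to 100; how the authors made these intensities is not given in the sources used here. The members and gene lists were chosen with earlier results of these data known. Quantile normalization was done in R 4.3.3 with limma 3.58.1. Zeros, and values under the 5th percentile of the rest, were set to that floor, 0.0313, and log2 was taken. Each of 3419 non-constant probes (20 were constant) was tested for gun1 minus WT, 8 against 8, with lmFit and eBayes, and p-values were adjusted by Benjamini-Hochberg at 0.05. The procedure was run on simulated data with independent samples and the WT spread in both genotypes. That run cannot show how the procedure performs with the larger spread of gun1 or with related samples. Levels are arithmetic means ± SD and folds compare geometric means. Of 692 probes naming 1 gene, 690 matched RefSeq (TAIR10.1) for symbols. Named were the 6 genes, list genes with their own probe, and the 2 genes most correlated with each. Equal numbers pair the samples: deviations from the group means correlated in 8 of 8 numbers (r from 0.143 to 0.421; -0.0338 on average for unequal numbers), a pairing that comes from the values. Figures used matplotlib 3.10.9. The number of arrays limits the precision. No sequences are shown.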

Additional observations from a re-analysis of the deposited data

Results flagged for a closer look

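Of 18 groups of 8 samples, 2 had a sample far from the rest in normalized intensity on the linear scale. About 1 in 20 groups would by chance if values were independent and normally distributed, which was not checked. The log2 values were not screened. On that scale CRR21 in gun1 replicate 3 stood apart, with a deviation of -1.25 against -0.25 for the next lowest. NdhN in gun1 replicate 7 was at 0.337, against a median of 0.137 in the other gun1 samples and 0.192 in the nearest. AT5G59400 in gun1 replicate 3 was at 0.201, against a median of 0.0514 and 0.0968 in the nearest.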

How the results depend on the processing

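In all, 1088 probes were called. Fitted anew, the totals were 592 with consecutive numbers averaged, 582 in the numbers 1 to 4, 331 in 5 to 8, and 996 to 1062 with a sample left out. Of the 6 genes, 4 were called. This became 2 without scaling (NdhS lower, CRR21 higher), 1 with consecutive numbers averaged, 1 with them as a random block, 0 in the numbers 1 to 4 and 0 in 5 to 8, and 3 to 4 with a sample left out. With the replicate number as a block 1293 probes were called, and no call changed among the 6 genes, Cpn60beta4, AT3G22690 and AT5G59400. Against the direction given, unscaled log2 differences were 6.4e-05 for PIFI, 0.0566 for CRR41, 0.37 for OTP85, 0.38 for Cpn60beta4, 0.40 for AT3G22690 and 0.55 for AT5G59400, and CRR21 was at -0.0263 with a common median. The gap between the 4 genes and the editing factors stayed below 0, from -0.88 to -0.27 over 31 alternatives, and from -0.66 to -0.48 with a sample left out. The alternatives leaving out a gene were chosen after seeing the data. All 31 reuse the samples on which the genes were chosen, and averaging consecutive numbers cannot change the gap. Genes were left out with quantile normalization only, so the gap without CRR21 may be smaller elsewhere. With cyclic loess, OTP85 was at -0.68, CRR41 at -0.43, NdhS at -0.73, PIFI at -0.90 and NdhN at -0.93. Without the numbers 7 and 8, OTP85 was at -0.81, CRR41 at -0.44, NdhS at -0.84, PIFI at -0.94 and NdhN at -1.11. Of all calls, 52.1% were higher in gun1, against 85.5% unscaled and 34.2% with a common median. The causes were not tested.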
